A study of Mus musculus with 5 samples.

Results

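The 4C-seq data of the Cebpa promoter comprised 2 libraries of 3T3-L1-PRE, undifferentiated cells of the mouse 3T3-L1 line, and 2 libraries of 3T3-L1-AD, the same line at day 7 after induction with IBMX, dexamethasone and insulin. Differentiation of this single line in culture is a model of adipogenesis, and the labels do not say whether the replicates were separate cultures, so p-values measure only the spread between these libraries. The libraries are called PRE1, PRE2, AD1 and AD2 below, and the states PRE and AD. The regions described here are trans windows of 2 kb that were seen in a single library. They were selected on measured read counts: a window on chromosomes 1 to 19 except chromosome 7, which carries Cebpa, had at least 13 reads in 1 library and was not listed in the other 3. A block of chromosome 10 between 117.4 and 117.8 Mb was left out. Of 16998 windows listed on these 18 chromosomes in at least 1 library, 13814 met the rule, and are called single-library windows below. The total number, the share and the read level of these windows in a library rest on the same reads as the rule, so they are given as a description, with no test between the states. There were 2558 and 8317 of them in PRE1 and PRE2, and 994 and 1945 in AD1 and AD2. The 4 libraries together listed 15960 trans windows that were in 1 library at any read count and 1038 that were in more, of which 35 were in 3 and 4 in all 4.

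In 4C-seq, crosslinked chromatin is digested with DpnII and religated, a further digestion with NlaIII and ligation makes small circles, and inverse PCR from the viewpoint amplifies whatever was ligated to it. Cebpa encodes C/EBP alpha, a transcription factor that acts with PPARG to establish and maintain the adipocyte program. Contacts with other chromosomes are rarer than contacts along the chromosome of the viewpoint, and each one is carried by few cells, so trans profiles are sampled more sparsely than cis profiles.

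The listed windows of all chromosomes held 9453610 and 16888137 reads in PRE1 and PRE2, and 6535263 and 10173531 reads in AD1 and AD2. The library with the most reads also had the most single-library windows, 60.2% of the total, and the library with the fewest reads had 7.20%. Per 1000000 listed reads there were 271 and 492 single-library windows in PRE and 152 and 191 in AD. What "not listed" means differed between libraries. The lowest listed count was 13 reads in PRE1, 11 in PRE2 and 2 in both AD libraries, so that an unlisted window could still hold up to 12, 10, 1 and 1 reads. At the threshold itself, 14 and 80 windows of PRE and 15 and 74 windows of AD had exactly 13 reads, whereas 0, 121, 18 and 88 windows in the same order were listed in that library alone with 12 reads, just outside the rule.

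Single-library windows were the larger part of every trans profile at the minimum of 13 reads. Of the trans windows with at least 13 reads, 92.6% of 2761 (95% Wilson interval 91.6% to 93.6%) were listed nowhere else in PRE1, and 92.2% of 9022 (91.6% to 92.7%) in PRE2. In AD the shares were 83.2% of 1195 (81.0% to 85.2%) in replicate 1 and 87.9% of 2214 (86.4% to 89.1%) in replicate 2. The difference of the means, AD minus PRE, was -6.90 percentage points. With fewer than 13 reads in the other 3 libraries in place of not listed, the shares were 93.1% and 98.2% in PRE and 84.6% and 91.1% in AD. The difference was then -7.84 percentage points. The intervals cover counting error only. Single-library windows held 89.5% and 81.2% of the trans reads in PRE and 82.7% and 84.6% in AD, with states that overlapped.

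At the minimum of 13 reads, the read level of single-library windows differed more within a state than between states. The median was 255.5 and 163 reads in PRE1 and PRE2, and 320.5 and 79 reads in AD1 and AD2. On the log2 scale the difference of the means, AD minus PRE, was -0.36. Its direction depended on the settings: it was 0.65 without AD2, 0.28, 0.72 and 1.19 with minimums of 25, 50 and 100 reads, and 0.27 after scaling to listed reads. With minimums of 50 and 100 reads the median of both AD libraries was above that of both PRE libraries. The distribution was wider in AD: the upper quartile was 26.1 and 36.8 times the lower one in replicates 1 and 2, against 11.3 and 8.94 times in PRE. The window with the most reads had 5860 and 2363 reads in PRE and 27021 and 17929 reads in AD. The top 10% of single-library windows took 42.2% and 35.7% of their reads in PRE, and 53.6% and 63.6% in AD. At the other end, 27.6% of the windows of AD2 had fewer than 25 reads, against 10.97% in AD1 and 7.78% and 10.5% in PRE1 and PRE2. Trans windows that were also listed in another library had medians of 415 and 779 reads in PRE and 188 and 134 reads in AD. They lay above the single-library windows in 3 of the 4 libraries and below them in AD1.

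Single-library windows were found on every one of the 18 autosomes in every library. Over 2317 Mb their density was 1.10 and 3.59 per Mb in PRE and 0.429 and 0.839 per Mb in AD, which is a window every 906, 279, 2331 and 1191 kb on average. Their number followed chromosome length only in part. Across the 18 chromosomes, Pearson's r between the number of windows and the length was 0.480 and 0.600 in PRE and 0.725 and 0.685 in AD, given as a description over chromosomes that share a library and its depth. The density still varied 2.63-fold and 2.60-fold between the lowest and the highest chromosome in PRE, and 2.27-fold and 2.21-fold in AD.

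Chromosome 19, the shortest autosome, and chromosome 6 carried more windows than their length gives. On chromosome 19, with 2.07 and 6.80 windows per Mb in PRE and 0.586 and 1.22 in AD, the share of windows was 1.87 and 1.90 times the share of length in PRE and 1.37 and 1.45 times in AD. On chromosome 6, with 1.503, 4.94, 0.641 and 1.06 windows per Mb in the same order of libraries, it was 1.36, 1.38, 1.49 and 1.26 times. Chromosomes 8, 11 and 15 were also above their share of length in all 4 libraries, which makes 5 such chromosomes. Chromosomes 1, 3, 4, 12, 13, 14, 16 and 18 were below it in all 4, which makes 8. Chromosome 3 was the lowest of them on average, with 0.753 and 0.729 times its share of length in PRE and 0.757 and 0.744 times in AD. The densities were related between libraries although no window was shared. Pearson's r of the densities over the 18 chromosomes was 0.970 between the PRE libraries, 0.693 between the AD libraries, and 0.704 to 0.859 between libraries of different states. Gene-rich chromosomes were denser: r between the density of windows and that of protein-coding genes was 0.689 and 0.666 in PRE and 0.401 and 0.698 in AD.

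The spread over chromosomes was compared between the states with edgeR's quasi-likelihood test on the number of windows per chromosome. At an FDR of at most 0.01, 0 of 18 chromosomes differed (0%). DESeq2 also gave 0, and 3 chromosomes had an unadjusted edgeR p under 0.05. The first was chromosome 19, with 127 and 418 windows in PRE and 36 and 75 in AD (log2 fold change of the share -0.41, edgeR FDR 0.0947). Chromosome 1 had 160 and 535 windows against 81 and 149 (0.29, edgeR FDR 0.141), and chromosome 12 had 111 and 358 against 34 and 67 (-0.33, edgeR FDR 0.209). DESeq2 gave no chromosome an unadjusted p under 0.05.

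In 1-Mb bins the windows were spread thinly. Of 2261 bins with at least 250 windows of known sequence, 62.5% and 92.3% held a single-library window in PRE, and 32.7% and 51.7% in AD. The mean was 1.13 and 3.67 windows per bin in PRE and 0.438 and 0.859 in AD. The variance was 1.33, 1.98, 1.22 and 1.38 times the mean in the same order, where 1 would be an even scatter of independent windows. The windows were not all independent, since 13.7% to 14.2% of those of a library touched another one. The part of these stretches in the ratio was not tested. The fullest bin held 8 and 18 windows in PRE and 5 and 7 in AD. Counting all libraries together, 59 bins held none and 400 held at least 10. Single-library windows of all 4 libraries met in 279 bins (12.3%). The median share of windows in protein-coding genes was 59.4% in those bins, against 19.2% in the bins with none. The longest run of bins with no such window in any library was 5 Mb at chr14:3000001-8000000. It holds 103 protein-coding genes and so is not poor in genes. The authors discarded fragment ends that do not map uniquely, and the part of this in the empty run was not tested.

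Bins rich in genes held more single-library windows in each library. With the bins in 4 groups by their share of protein-coding windows, the mean per bin of the highest group was 1.81 and 1.92 times that of the lowest in PRE and 1.88 and 1.91 times in AD. Spearman's rho over the 2261 bins was 0.199 and 0.327 in PRE and 0.125 and 0.174 in AD for the gene share, and 0.269, 0.475, 0.179 and 0.329 for the GC content, as a description over bins that share a library. For the number of DpnII sites per bin it was -0.0833, -0.216, -0.0804 and -0.115. Bins were not matched for GC content, DpnII sites or unique mapping, whose part in the excess of gene-rich bins was not tested. Between libraries, the numbers per bin were only weakly related, with a rho of 0.252 between the PRE libraries, 0.0705 between the AD libraries and 0.0744 to 0.215 across states. In counts this sparse, such weak correlations are no finding.

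The bin with the most windows was picked out in each library. In PRE2 it was chr6:5000001-6000000, with 18 windows there, 2 in PRE1, and 1 and 2 in AD. The genes with a window there were Ppp1r9a, which encodes the actin-binding protein neurabin, the paraoxonase genes Pon1 and Pon2, and the dynein chain gene Dync1i1. PRE1 had 3 bins with 8 windows each, of which chr19:16000001-17000000 holds the G protein alpha subunit genes Gnaq and Gna14, and had 6, 1 and 0 windows in PRE2 and AD1 and AD2. The other bins were chr5:144000001-145000000 and chr8:70000001-71000000. AD1 had 4 bins with 5 windows, at chr1:172000001-173000000, chr3:89000001-90000000, chr6:29000001-30000000 and chr15:103000001-104000000. The bin on chromosome 6 had 2, 16 and 2 windows in PRE1, PRE2 and AD2 and was the next fullest of all libraries together, with 25. The genes with a window of AD1 were Rbm28, Irf5 and Ahcyl2. Of the others, chr15:103000001-104000000 includes Zfp385a, Itga5 and Pde1b among the genes with a window, and had 1, 5 and 1 windows in PRE1 and PRE2 and AD2. AD2 had 3 bins with 7 windows, at chr2:114000001-115000000, chr5:36000001-37000000 and chr19:5000001-6000000. The last of these had 1, 11 and 1 windows in PRE1 and PRE2 and AD1, and the genes with a window of AD2 were Rin1, Ltbp3 and Frmd8. Summed over the libraries, chr19:4000001-5000000 had the most, with 4 and 17 windows in PRE and 2 and 4 in AD. A window was found in 13 of its protein-coding genes, among them Pcx, the gene of the anaplerotic enzyme pyruvate carboxylase.

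Bins with at least 10 windows summed over the libraries were compared between the states. In edgeR's quasi-likelihood test 0 of 400 bins differed at an FDR of at most 0.01 (0%), with 29 bins at an unadjusted p under 0.05, and DESeq2 gave 0 and 9. Most of the 29 bins had no window in AD and met the minimum through PRE alone. Their number is thus a description only. With no minimum beyond 1 window, edgeR called 0 of 2207 bins, with 111 at an unadjusted p under 0.05. The smallest p among the 400 bins belonged to chr2:114000001-115000000, with 0 and 1 windows in PRE and 2 and 7 in AD (edgeR FDR 0.0960). The genes with a window there were Aqr, which encodes a spliceosomal helicase, and Dph6, which acts in diphthamide synthesis. The next were chr6:54000001-55000000, with 4 and 14 windows in PRE and none in AD (edgeR FDR 0.633), and chr19:36000001-37000000, with 5 and 12 windows in PRE and none in AD (edgeR FDR 0.633). Both of these bins reached the minimum of 10 windows through PRE alone, which holds 10875 of the 13814 windows. The bin on chromosome 2 reached it mainly through AD. For all of these bins the counts, p and FDR are a description only. With a minimum of 25 reads, the smallest edgeR p of any bin was 0.0122. A p that misses the threshold does not show that the states are alike.

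Single-library windows with the most reads were also picked out in each library. In AD1 they were chr6:148770001-148772000, with 27021 reads, over an untranslated exon part of Ipo8, which encodes a nuclear import receptor, chr13:4700001-4702000, with 19550 reads, in an intron of the long non-coding RNA gene Gm40658, and chr16:33010001-33012000, with 19104 reads, in an intron of Lrch3. The first of them held 2.09% of the reads of all single-library windows of that library. In AD2 they were chr5:53862001-53864000, with 17929 reads, in an intron of Tbc1d19 and next to a window with 1241 reads, chr17:25362001-25364000, with 16979 reads, intergenic and 2.3 kb from the mast cell tryptase gene Tpsb2, and chr3:54256001-54258000, with 16915 reads, in an intron of the cation channel gene Trpc4. Since the AD libraries list windows from 2 reads on, these windows had at most 1 read in the other AD library.

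In PRE the leading windows were lower. Those of replicate 1 were chr6:86722001-86724000, with 5860 reads, over a coding exon of Gmcl1, chr2:74632001-74634000, with 5626 reads, over the pseudogene Gm13672 at 19 kb from the homeobox gene Evx2, and chr16:96840001-96842000, with 5614 reads, in an intron of Dscam, which encodes a neural cell adhesion molecule. Those given for replicate 2 are chr9:83226001-83228000, with 2363 reads, intergenic and 79.3 kb from Hmgn3, and chr6:72554001-72556000, with 2244 reads, over coding and untranslated exon parts of Capg, the gene of an actin-capping protein. The leading window of PRE2 held 0.0961% of the reads of its single-library windows, against 0.382% in PRE1 and 2.09% and 0.848% in AD1 and AD2.

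Most single-library windows had no neighbor of the same library. The share that touched another one was 13.7% in both PRE libraries and in AD1, and 14.2% in AD2 (difference of the means 0.259 percentage points, two-sided exact permutation test, p = 0.667). The difference was 0.00541 without AD2 and 1.08 with a minimum of 100 reads. Nearly all of these stretches were pairs, 175 and 547 in PRE and 68 and 138 in AD. A longer stretch was found only in PRE2, of which the longest had 4 windows at chr11:3190001-3198000 with 111, 150, 150 and 220 reads, over exons of Sfi1, a centrosomal protein gene, and an intron of Drg1. In the other libraries the pair with the most reads in sum was chr9:79654001-79658000 in PRE1, over coding exons of the collagen gene Col12a1 with 4033 reads in each window, and chr17:64892001-64896000 in AD2, intergenic with 9708 and 9788 reads, and that of AD1 follows below. Drg1, named after its values were seen, spans 79.1 kb. It had 10 single-library windows within the gene or 10 kb of it, 3 and 6 in PRE and 0 and 1 in AD. Those of PRE2 include windows of the stretch on chromosome 11 named above, so they are not all separate sites.

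In most pairs both windows had exactly the same number of reads. This was so in 140 of 175 pairs (80.0%) and 412 of 547 (75.3%) in PRE, and in 51 of 68 and 106 of 138 (76.8%) in AD. A DpnII site lay within 100 bp of the shared boundary in 85.7% and 87.6% of the equal pairs in PRE and in 84.3% and 57.5% in AD. In the unequal pairs this was so in 65.7%, 65.9%, 58.8% and 71.9% in the same order, and at 38.8% of all window boundaries. The site was thus more frequent in pairs of either kind, and in AD2 it was more frequent in the unequal pairs. Each such pair counts as 2 single-library windows, and whether its windows share reads was not tested. An equal pair of AD1, at chr1:13538001-13542000, had 12161 reads in each window and lay 22.7 kb from Tram1, and an equal pair of PRE2 had 1819 reads in each window. The mm10 sequences of the 80 bases centered on these 2 boundaries show each site, GATC in capitals. The run of AD1 has 2 sites to the left of its middle, the nearer one at 10 bases, and that of PRE2 has its site 5 bases from the middle.
AD1, chr1:13539961-13540040, forward strand: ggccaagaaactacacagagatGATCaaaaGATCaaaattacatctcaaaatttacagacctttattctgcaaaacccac
PRE2, chr1:15783961-15784040, forward strand: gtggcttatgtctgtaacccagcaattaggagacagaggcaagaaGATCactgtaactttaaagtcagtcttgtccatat

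Windows of other libraries lay near single-library windows more often than near windows that no library listed. Within 10 kb, 14.4% and 8.66% of the single-library windows in PRE and 14.8% and 12.7% in AD had a window listed in another library, against 11.2%, 6.70%, 12.01% and 10.4% of the windows that no library listed. No test was made, because nearness is mutual between libraries and the 4 values are not independent. In the adjacent windows the same direction was seen for every pair of libraries but that of PRE1 windows next to those of AD1, with 0.302% (3 windows) against 0.451%. Within a state, a window of PRE2 lay next to 2.35% (60) of the single-library windows of PRE1, against 1.52%, and a window of PRE1 next to 0.770% (64) of those of PRE2, against 0.451%. In AD, a window of AD2 lay next to 0.905% (9) of those of AD1, against 0.724%, and a window of AD1 next to 0.566% (11) of those of AD2, against 0.273%. The unlisted windows were not matched for genes or DpnII sites, whose part in these differences was not tested.

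Single-library windows lay in genes more often than windows of the genome at large. A gene was overlapped by 58.3% and 58.5% of them in PRE and by 57.04% and 58.6% in AD, against 50.7% of the 1126724 windows of 2 kb with known sequence on these chromosomes. The excess was seen in 4 of 4 libraries, with a mean of 7.41 percentage points (two-sided exact permutation of signs, p = 0.125, the smallest that 4 libraries allow). The windows of the genome were not matched for GC content, repeats, DpnII sites or unique mapping, whose part in the excess was not tested. Between the states the shares overlapped (difference of the means -0.596 percentage points, two-sided exact permutation test, p = 1), with a difference of 0.189 without AD1. Exons were overlapped by 24.7% and 24.6% in PRE and 22.8% and 27.2% in AD, against 19.0% of all windows. A start of a protein-coding gene lay in 2.23%, 2.57%, 2.52% and 3.03% in the same order, against 1.56% of all windows. The trans windows that were also listed in another library were overlapped by genes at 59.1% and 59.6% in PRE and 68.2% and 60.2% in AD, above the single-library windows in all 4 libraries (mean difference -3.64 percentage points). This is a description, since the same shared windows enter several libraries. The mean rests mostly on AD1: the differences were -0.786 and -1.06 in PRE and -11.1 and -1.61 in AD.

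The sequence of the windows also differed from the genome. Their GC content was 43.1% and 43.3% in PRE and 43.1% and 44.5% in AD, against 41.9% in all windows, and soft-masked repeats made up 27.8%, 27.1%, 26.8% and 25.7%, against 33.4%. Windows shared between libraries lay further from the genome, with a GC content of 43.6%, 43.5%, 44.2% and 45.1% and repeats of 25.8%, 26.0%, 24.9% and 22.5%, so these traits were not particular to single-library windows. Because 4C-seq reads start at a DpnII site, the windows were searched for GATC. At least 1 GATC was present in 99.9% and 99.95% of the single-library windows in PRE and in 99.9% and 99.4% in AD, against 98.95% of all windows (difference between the states -0.270 percentage points, exact permutation over libraries, two-sided p = 0.333, below which 2 libraries against 2 cannot go). With shares this close to 100%, the difference rests on AD2. The mean number of sites was 5.55 and 5.68 in PRE and 5.57 and 5.16 in AD, against 4.98 in all windows. In windows with fewer than 100 reads it was 5.61 and 5.70 in PRE and 5.57 and 4.87 in AD. In PRE and AD2, windows without GATC were not confined to those with fewer than 100 reads. With a minimum of 100 reads, GATC was present in 99.944% and 99.94% of the single-library windows in PRE. In AD1 and AD2 the shares at that minimum were 100% and 99.778%.

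The reading primer of the viewpoint ends in a DpnII site, and its end was found at DpnII sites of single-library windows of AD more often than in the genome. The last 8 bases of the primer, on either strand, were matched in 26 windows (2.62%) of AD1 and 89 windows (4.58%) of AD2, against 18 (0.704%) and 74 (0.890%) in PRE and 0.580% of all windows. A match of at least 10 bases, a length chosen after the values were seen, was present in 10 windows (1.01%) and 34 windows (1.75%) in AD, in 0 and 6 windows (0.0721%) in PRE and in 0.0541% of all windows. Both AD libraries thus lay above both PRE libraries at either length, and at 10 bases they were 18.6 and 32.3 times the share of all windows. The windows with a match of 8 bases held 0.926% and 0.952% of the reads of single-library windows in PRE and 1.82% and 1.497% in AD. Trans windows that were also listed in another library had it more often, at 1.48% and 1.56% in PRE and 13.4% and 13.8% in AD, again as a description over windows that several libraries share. The part of these matches in the difference between the states was not tested beyond leaving such windows out. The shares of single-library windows were then 92.7% and 92.2% in PRE and 84.8% and 88.9% in AD, where leaving them out was decided with the values known.

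The sequences show how far the match reaches in a window with the longest match of each library, where lengths tied the one with the most reads, and in a window of AD1 with many reads. Each run of 40 bases starts at the place where the primer would begin and continues for 20 bases beyond the DpnII site, and capitals mark the bases that match the end of the primer without a break. In the reading primer, capitals mark the DpnII site.
Reading primer: atctggcccagagagcGATC
PRE1, chr4:149051449-149051488, reverse strand: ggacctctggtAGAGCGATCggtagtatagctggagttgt
PRE2, chr2:43395496-43395535, reverse strand: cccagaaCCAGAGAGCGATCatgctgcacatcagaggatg
AD1, chr2:59026051-59026090, reverse strand: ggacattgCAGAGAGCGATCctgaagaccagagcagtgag
AD1, chr5:18753372-18753411, reverse strand: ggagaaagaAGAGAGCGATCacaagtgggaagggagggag
AD2, chr8:25431712-25431751, forward strand: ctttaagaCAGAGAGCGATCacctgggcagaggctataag
The site of PRE1 lies in an intron of Pex14, matches 9 bases in a row and has 10 of 20 positions identical to the primer, and its window had 3241 reads. The site of PRE2 is intergenic, matches 13 bases with 15 of 20 positions identical, and its window had 382 reads. In AD1, the site in an intron of Ccdc148 matches 12 bases and its window had 150 reads, and the intergenic site on chromosome 5 matches 11 bases and its window had 1167 reads. The site of AD2 is intergenic at 81.9 kb from Fgfr1, matches 12 bases with 14 of 20 positions identical, and its window had 437 reads. The leading windows by reads named above had matches of 4 or 5 bases only.

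Genes of the adipocyte and preadipocyte programs were compared with all protein-coding genes by the presence of single-library windows. Of 31 adipocyte genes on the chromosomes used, 12 (38.7%) had such a window in the gene or within 10 kb of it in at least 1 library, and of 20 preadipocyte and fibroblast genes 6 (30.0%), against 33.4% of 18784 protein-coding genes. The numbers of adipocyte genes were 4 and 6 in PRE and 2 and 3 in AD, which are 12.9%, 19.4%, 6.45% and 9.68%, against 8.50%, 23.0%, 3.49% and 6.66% of all protein-coding genes. Those of the preadipocyte list were 1, 5, 3 and 0. With so few genes, nothing is read from either list beyond these counts.

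Among the adipocyte genes, Scd1, which encodes the lipogenic stearoyl-CoA desaturase, had a window over coding exons with 563 reads in AD1 and another just downstream of the gene, at 0.455 kb, with 298 reads in PRE1. Plin4, a lipid droplet coat gene, had a window 8.20 kb upstream with 7284 reads in AD2, and 2 windows in PRE2, of which the larger one had 1244 reads. In AD2, windows also lay over coding exons of Cidec, with 67 reads, and over an untranslated exon part of the leptin gene Lep, with 47 reads. In AD1 the remaining gene was Dgat1, a triglyceride synthesis gene, with 128 reads at 4.01 kb downstream. In PRE1, Rxra, the partner of PPARG in heterodimers, had 2 windows, of which the larger one, in an intron, had 975 reads. Ebf2 had 283 reads in an intron, and Acaca had 71 reads in the larger of 2 windows. In PRE2, Retn, Acaca, Cd36 and Insr followed Plin4 with 239, 88, 38 and 37 reads. The window 2.95 kb upstream of Pparg, named after the values were seen, had 23 reads. No adipocyte gene had windows of 3 libraries.

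Among the preadipocyte genes, Ebf1, an early factor of the adipocyte lineage, had windows in 3 libraries, with 2197 reads in an intron in PRE1, 275 reads in the larger of 2 windows in PRE2, and 2214 reads over coding and untranslated exon parts in AD1. Its gene spans 391 kb. Zfp423, a determinant of preadipocytes, had 2314 reads in an intron in AD1, and 27 reads in the larger of 2 windows in PRE2. Gata3, which holds preadipocytes back from differentiation, had 7548 reads over an intron in AD1. In PRE2, windows over exons of Acta2 and Pdgfrb had 831 and 327 reads, and a window downstream of Dlk1 had 60 reads. AD2 had no window at a preadipocyte gene.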

How the data were processed

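Libraries were assigned to a state from their titles, in which PRE is only called 3T3-L1. The titles read mRNA-Seq, but the molecule is genomic DNA and the protocol is that of 4C-seq, so the data were taken as 4C-seq. The authors made the deposited read count with r3Cseq after mapping by bowtie2 within pipe4C, and it is a raw count per window. The deposited signal, in a column called RPMs, is a normalized value, and only windows where it exceeds 1 were listed by the authors. That signal was left aside, and so were the authors' deposited p-value and q-value columns. Single-library windows, lists and tests were chosen with earlier results of these data known.

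Windows were placed on GRCm38, the build of mm10, with GENCODE genes. Numbers of windows per chromosome and per bin of 1 Mb (at least 10 windows) were tested with edgeR's quasi-likelihood test, TMM, Benjamini-Hochberg adjustment and an FDR of at most 0.01. Stretches, gene overlap and sequence features were tested with exact permutations over libraries. Named were up to 3 windows with the most reads, the fullest bin and longest stretch of each library, and list genes, at most 5 per library. The fullest bin over all libraries, the bins and chromosomes with the smallest p, Drg1 and Pparg were named after their values were seen. Alternatives were other minimums of reads, joined stretches, other normalizations, DESeq2, a replicate block, other bins and each library left out. For the share of single-library windows, fewer than 13 reads in the other 3 libraries was a further alternative. 4C-seq of adipose tissue was not analysed here. The tools were Python 3.11.15, numpy 2.4.6, pandas 2.3.3, scipy 1.17.1, R 4.3.3, edgeR 4.0.16 and DESeq2 1.42.0.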

Additional observations from a re-analysis of the deposited data

How the results depend on the processing

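The share of single-library windows follows from the rule, so its difference is a description (-9.24 to -4.57 percentage points without 1 library). The difference in the share in stretches was 0.00541 without AD2 and 0.514 without AD1, and 0.554, 1.05 and 1.08 with minimums of 25, 50 and 100 reads, so its size depended on the settings. That in windows with GATC rested on AD2 (-0.0375 without AD2, -0.502 without AD1), and at a minimum of 100 reads AD1 lay above both PRE libraries. The difference in gene overlap ranged from -1.38 to 0.189 without 1 library and turned only without AD1. The difference in log2 reads per window turned to 0.28, 0.72 and 1.19 with minimums of 25, 50 and 100 reads, to 0.27 as log2 reads per 1000000 listed reads, and ranged from -1.37 to 0.65 without 1 library. The higher minimums remove a larger share of windows from AD2 than from the others, and the cause was not tested. Exact permutation tests of 2 libraries against 2 cannot pass a threshold of 0.05 and say nothing about stability.

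For chromosomes and 1-Mb bins the number of calls was 0 under every alternative run, including the replicate block (0 chromosomes and 0 bins in this paired fit). The labels share only replicate numbers: the correlation of the deviations of same-numbered libraries was -0.055 over 400 bins. Low numbers of windows per bin limit what these tests can detect, and reads from PCR carry no molecular identifiers.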
